A study of Rattus norvegicus with 16 samples.

Results

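Genes of platelet-derived growth factor (PDGF) signalling and markers of mural cells, the pericytes and smooth muscle cells that wrap vessels, were followed in rat corneas. They were chosen by name: the ligands *Pdgfa*, *Pdgfb* and *Pdgfc*, the receptors *Pdgfra* and *Pdgfrb*, and the markers *Acta2*, *Tagln*, *Des*, *Rgs5* and *Cspg4*. Of these 10 genes, 9 had at least 1 array probe set that carried their symbol alone, giving 11 probe sets out of 31042 and 9 genes out of 14217. *Pdgfb* had none and was not analysed here.

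Each of 16 corneas from male Wistar rats aged 12 to 16 weeks was measured on 1 Affymetrix array, with 4 corneas in each of 4 groups. Naïve corneas had no suture and no treatment, whereas the IgG, anti-*Vegf* and dexamethasone corneas carried 2 sutures and had received 4 drops per day for 2 days. The labels give 20 mg/ml for both antibodies and 1 mg/ml for dexamethasone, while the study's methods give the antibody concentration in µg/ml. The labels of the IgG group name an anti-IgG antibody, but the treatment text names goat IgG. The methods describe tissue taken between the sutures and the limbus, with the limbal rim removed, from samples chosen on RNA integrity, and the labels describe the cornea without its scleral rim. No group is genetically modified, and the sutured groups share the injury, so none of them shows a drop given without injury.

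PDGF ligands are secreted dimers that activate the receptor tyrosine kinases PDGFRα and PDGFRβ. Growing vessels release PDGF-B, which recruits mural cells that carry PDGFRβ, while PDGFRα is mostly a receptor of fibroblastic cells and is used by keratocytes, the stromal cells of the cornea. The healthy cornea has no vessels inside the limbus, and the contractile proteins encoded by *Acta2* and *Tagln* are made by mural cells and also by the myofibroblasts of a wound. In whole tissue, fewer cells of a type and less RNA per cell cannot be told apart.

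Values are log2 signals per probe set, so a difference of 1 is a doubling, and they are given in the order of the array names (naïve 1, 2, 3 and 4; IgG F17, F19, F22 and F23; anti-*Vegf* F1x, F2, F6 and F7; dexamethasone F25, F26, F27 and F30). Differences were tested with limma over all probe sets with Benjamini-Hochberg adjustment, and the p-values measure the spread between corneas. Against naïve corneas a gene passed where its adjusted p was under 0.05 and its signal differed by at least 1.5-fold, and for a pair of treatments the adjusted p alone decided, at the same limit. Comparisons with naïve corneas share the same 4 naïve arrays, and their values are given side by side.

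Arrays differed in ways that bear on the members. The signal of a 5′ probe set minus that of the 3′ probe set of the same control gene, a measure that drops when the labelled RNA is short, ran from −1.75 to −0.59 for beta-actin and from −0.48 to −0.04 for *Gapdh*. The *Gapdh* difference was lower on dexamethasone arrays than on IgG arrays by a mean of 0.31 and than on anti-*Vegf* arrays by 0.27, without overlap (exact permutation test, two-sided, p = 0.0286 for each, the smallest value that 4 arrays against 4 allow). IgG arrays were higher than naïve arrays by a mean of 0.23 for *Gapdh* and 0.58 for beta-actin. For beta-actin, dexamethasone arrays were lower than IgG arrays by 0.46. These contrasts were also without overlap (exact permutation test, two-sided, p = 0.0286 for each). In both measures the remaining pairs of groups overlapped. Group and 5′ minus 3′ difference therefore cannot be told apart where IgG is compared with naïve corneas. Poly-A control RNAs, added before labelling, had mean signals of 5.11 ± 0.14 (SD, n = 4) on naïve, 7.22 ± 0.27 on IgG, 7.02 ± 0.11 on anti-*Vegf* and 5.19 ± 0.15 on dexamethasone arrays. Against naïve arrays they were higher by 2.11 on IgG and by 1.90 on anti-*Vegf* arrays, without overlap, whereas dexamethasone and naïve arrays overlapped. Dexamethasone arrays were lower than IgG arrays by 2.03 and than anti-*Vegf* arrays by 1.83, also without overlap. Every comparison of IgG or anti-*Vegf* with naïve or dexamethasone treated corneas therefore crosses this technical difference, for members and list genes alike. Its part in them was not tested. A list of 5 keratocyte genes averaged between 10.01 and 10.85 on every array, and a list of 6 leukocyte genes averaged between 6.71 and 6.85 on naïve arrays and between 8.67 and 10.16 on sutured ones. Array medians lay between 6.548 and 6.614.

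Of the 9 members, *Pdgfra* was higher in all 3 sutured groups than in naïve corneas, *Tagln* was higher in the IgG and dexamethasone groups, and *Pdgfa* was higher in dexamethasone treated corneas than in both antibody groups. In IgG corneas 2 of 9 members rose and 0 fell, where 6.32% of all genes rose and 5.02% fell. In anti-*Vegf* corneas 1 of 9 rose and 0 fell, where 6.82% of all genes rose and 5.94% fell. In dexamethasone treated corneas 2 of 9 rose and 0 fell, where 8.19% of all genes rose and 4.45% fell. Between treatments, 1 of 9 was higher and 0 lower in dexamethasone than in anti-*Vegf* (4.63% and 2.5% of all genes) and likewise against IgG (7.41% and 3.16% of all genes). Between anti-*Vegf* and IgG, limma passed 0 of 9 members and 0% of all genes in either direction, and 0 of 9 members had an unadjusted p under 0.05. For that unadjusted count no share of all genes is given.

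The median log2 difference of the 9 members was 0.22 in IgG, 0.15 in anti-*Vegf* and 0.21 in the dexamethasone group, beside medians of −0.007, −0.007 and 0.004 over all genes. Between treatments it was 0.14 for dexamethasone against anti-*Vegf*, −0.07 for dexamethasone against IgG and −0.09 for anti-*Vegf* against IgG. Thus most members did not pass, and the differences that passed were those of *Pdgfra*, *Tagln* and *Pdgfa*. In each comparison with naïve corneas 4 of 9 members had an unadjusted p under 0.05 in limma. The differences of 7, 6 and 7 of 9 members were positive in IgG, anti-*Vegf* and dexamethasone. No share of all genes stands beside these counts of unadjusted p and of sign, so they are not read as a trait of the members.

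**Figure D1:**
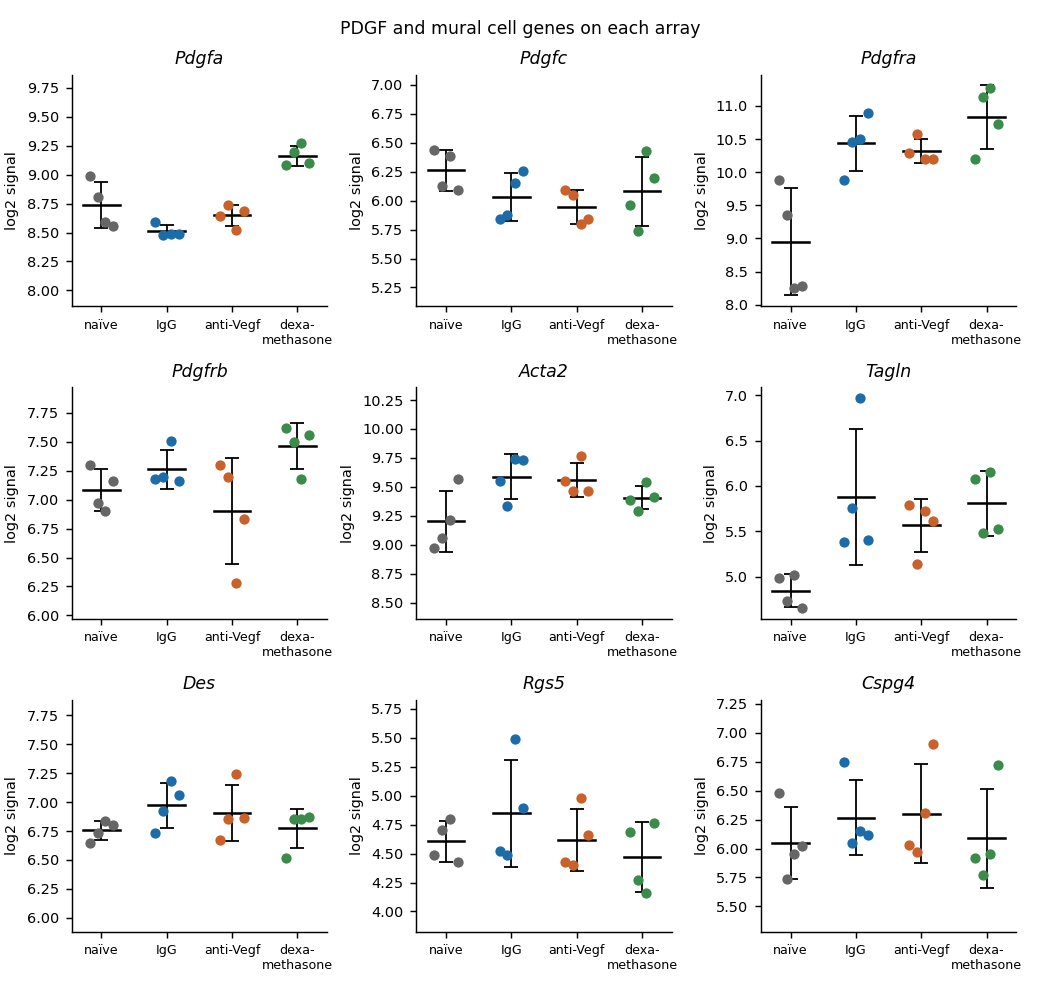
Log2 signal of each of the 9 measured genes (vertical axes, which do not start at 0 and each span at least 2 log2 units) on every array of the 4 groups (points). Horizontal lines are group means and error bars are the SD of 4 arrays; the 2 lowest *Pdgfra* points, 8.26 and 8.29, are naïve, and the 4 dexamethasone points of *Pdgfa*, from 9.08 to 9.27, lie above all others.

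Among the ligands, *Pdgfa*, which encodes the PDGF-A chain that binds PDGFRα, read 8.99, 8.81, 8.59 and 8.56 on naïve arrays and 8.59, 8.48, 8.49 and 8.49 on IgG arrays. On anti-*Vegf* arrays it read 8.64, 8.74, 8.52 and 8.69, and on dexamethasone arrays 9.08, 9.20, 9.27 and 9.10. Every dexamethasone array lay above each of the other 12 arrays, whereas the ranges of the naïve, IgG and anti-*Vegf* arrays touched or overlapped.

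The *Pdgfa* signal was 1.57-fold higher in dexamethasone treated than in IgG corneas (log2 difference 0.65, SE 0.09, adjusted p = 0.000581) and 1.43-fold higher than in anti-*Vegf* corneas (0.51, adjusted p = 0.00435). Against naïve corneas it was 1.34-fold higher, with a log2 difference of 0.42 (95% interval 0.23 to 0.62) and an adjusted p of 0.00304, which falls under the fold limit. In IgG and anti-*Vegf* corneas the differences from naïve were −0.23 (adjusted p = 0.0783) and −0.09 (adjusted p = 0.517). The order of the group means was therefore dexamethasone 9.16, naïve 8.74, anti-*Vegf* 8.65 and IgG 8.51, and only the step between dexamethasone and the rest exceeded the spread between corneas.

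In the naïve group *Pdgfa* also moved with the control differences. The naïve arrays 1 and 2, with *Gapdh* 5′ minus 3′ differences of −0.43 on both, had *Pdgfa* signals of 8.99 and 8.81, and naïve arrays 3 and 4, at −0.19 and −0.16, had 8.59 and 8.56. With the *Gapdh* difference as a covariate, an alternative chosen after seeing the data, the dexamethasone difference fell to 0.29 against IgG (adjusted p = 0.204) and to 0.20 against anti-*Vegf* (adjusted p = 0.322). With the beta-actin difference as the covariate it was 0.50 (adjusted p = 0.00182) and 0.42 (adjusted p = 0.00334). Dexamethasone and the antibody groups occupy separate ranges of the *Gapdh* difference, so that treatment and this measure cannot be told apart in those comparisons. The same holds for the beta-actin difference between dexamethasone and IgG arrays. The poly-A controls were also lower on dexamethasone arrays, by 2.03 against IgG and 1.83 against anti-*Vegf*, and their part in the result was not tested. Against naïve corneas, where the ranges overlap, the *Pdgfa* difference was 0.33 with the *Gapdh* covariate (adjusted p = 0.00342).

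**Figure D2:**
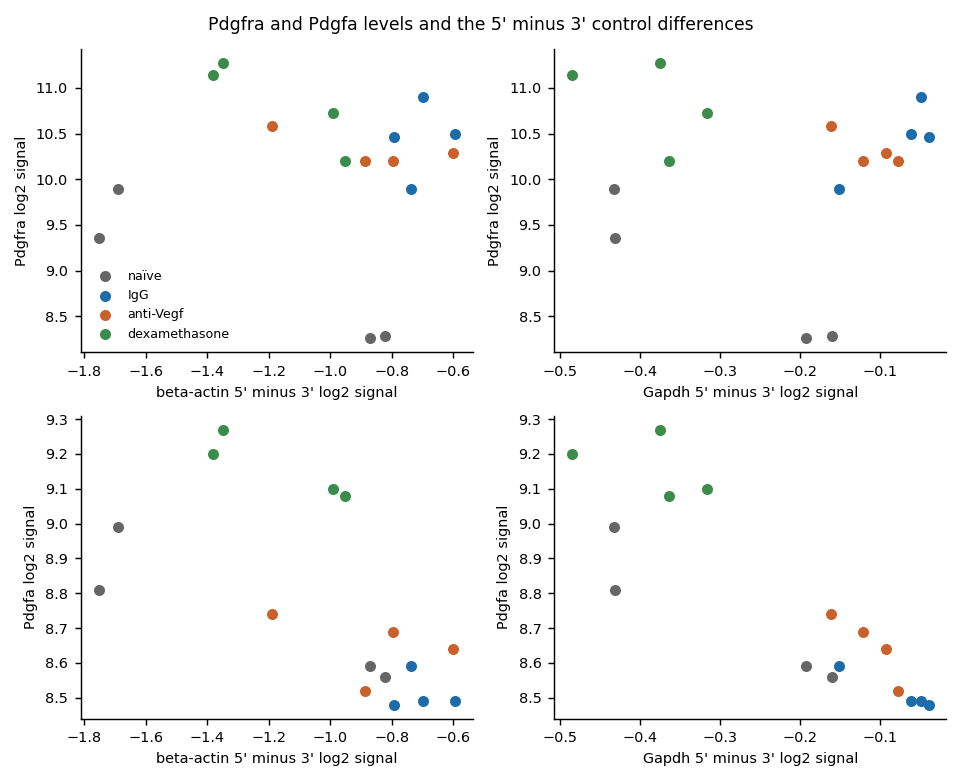
Log2 signals of *Pdgfra* (upper panels) and *Pdgfa* (lower panels) against the 5′ minus 3′ log2 difference of beta-actin (left) and *Gapdh* (right), with 1 point per array. In all panels naïve arrays 1 and 2 lie to the left of and above naïve arrays 3 and 4, and the lowest dexamethasone value of *Pdgfa*, 9.08, is above the highest naïve value, 8.99.

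The promoters of *Pdgfa*, the ligand that differed under dexamethasone, and of *Acta2*, the smooth muscle actin gene, are shown because the glucocorticoid receptor and serum response factor bind short motifs of known letters. RefSeq (GRCr8) windows from 250 bases before to 50 after the start were at hand for 8 of the 10 genes, all but *Pdgfrb* and *Tagln*. The glucocorticoid element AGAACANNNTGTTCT and its half-site AGAACA, which lies within it, were searched on both strands and matched in 0 of the 8 windows, where 0.0149% and 20.7% of all 33469 windows hold them. The GC box GGGCGG, searched likewise and sharing no bases with the others, matched in 5 of the 8 windows (*Pdgfa*, *Pdgfb*, *Rgs5*, *Cspg4* and *Des*) and in 33.1% of all windows, in *Pdgfa* at position −187 (its first base, counted back from the start). The CArG box, to which serum response factor binds, matched in 0 of the 8 windows, and in 1.64% of all. With 1 G or C allowed among the 6 A or T bases of its core, it matched in 2 of the 8 windows, in *Acta2* at −134 and −84 and in *Pdgfb* at −140, and 8.1% of all windows hold it. These are matches of letters, not measured sites. The 250 bases before the start follow 5′ to 3′, in *Pdgfa* at chr12:20759116-20759365 (plus strand) with the GC box in capitals and in *Acta2* at chr1:241172504-241172753 (minus strand) with both relaxed CArG boxes in capitals.
*Pdgfa*: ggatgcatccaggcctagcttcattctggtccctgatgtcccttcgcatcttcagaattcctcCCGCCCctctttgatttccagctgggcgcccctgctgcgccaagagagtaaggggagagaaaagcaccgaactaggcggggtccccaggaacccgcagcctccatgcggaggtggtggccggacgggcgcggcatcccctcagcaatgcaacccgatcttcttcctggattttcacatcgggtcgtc
*Acta2*: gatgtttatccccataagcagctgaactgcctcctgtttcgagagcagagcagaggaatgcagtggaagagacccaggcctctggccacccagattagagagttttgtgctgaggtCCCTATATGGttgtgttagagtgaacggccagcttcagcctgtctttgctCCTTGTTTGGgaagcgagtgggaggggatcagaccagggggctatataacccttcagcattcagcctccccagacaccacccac

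*Pdgfc*, whose product is secreted with a CUB domain that must be cut away before it binds PDGFRα, did not pass in any comparison. It ranged from 6.09 to 6.44 on naïve, from 5.84 to 6.26 on IgG, from 5.80 to 6.09 on anti-*Vegf* and from 5.74 to 6.43 on dexamethasone arrays. The largest of its 6 differences was that between anti-*Vegf* and naïve corneas, −0.32 (95% interval −0.62 to −0.01, adjusted p = 0.118), and all ranges overlapped.

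Among the receptors, *Pdgfra* showed the largest differences of any member. It read 9.89, 9.36, 8.26 and 8.29 on naïve arrays and 9.89, 10.46, 10.50 and 10.90 on IgG arrays. On anti-*Vegf* arrays it read 10.29, 10.58, 10.20 and 10.20, and on dexamethasone arrays 10.20, 11.14, 11.27 and 10.72. All anti-*Vegf* and dexamethasone arrays lay above all naïve arrays, and IgG array F17 fell within the naïve range by less than 0.01.

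Relative to naïve corneas, *Pdgfra* was 2.80-fold higher in IgG corneas (log2 difference 1.48, SE 0.33, adjusted p = 0.00305), 2.58-fold higher in anti-*Vegf* corneas (1.37, adjusted p = 0.00521) and 3.67-fold higher in dexamethasone treated corneas (1.88, adjusted p = 0.000574). The sutured groups did not pass against each other: dexamethasone exceeded anti-*Vegf* by 0.51 (95% interval −0.18 to 1.20) and IgG by 0.39 (−0.30 to 1.08), and anti-*Vegf* differed from IgG by −0.12 (−0.81 to 0.57). The group means thus ordered as dexamethasone 10.83, IgG 10.44, anti-*Vegf* 10.32 and naïve 8.95, and only the step to naïve exceeded the spread.

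The naïve group was the most variable for *Pdgfra*, with an SD of 0.81 beside 0.42, 0.18 and 0.48 in the IgG, anti-*Vegf* and dexamethasone groups. Its higher arrays 1 and 2 had beta-actin 5′ minus 3′ differences of −1.69 and −1.75, and its lower arrays 3 and 4 had −0.87 and −0.82. In the dexamethasone group the higher arrays F26 and F27 had −1.38 and −1.35, and the lower arrays F25 and F30 had −0.95 and −0.99. The IgG arrays did not follow this pattern, since F17 and F23, with *Pdgfra* at 9.89 and 10.90, had −0.74 and −0.70 for beta-actin and −0.15 and −0.05 for *Gapdh*. With the beta-actin difference as a covariate the differences from naïve corneas were 2.27 in IgG, 1.93 in anti-*Vegf* and 2.03 in the dexamethasone group (adjusted p at most 2.68e-05), and with that of *Gapdh* they were 2.35, 2.09 and 1.57 (adjusted p at most 0.000957). IgG and naïve arrays occupy separate ranges of both measures, so that group and measure cannot be told apart in the IgG values. The keratocyte list, whose cells carry this receptor, averaged between 10.58 and 10.84 on naïve arrays and between 10.01 and 10.85 on sutured arrays, with 0 of its 5 genes higher in any of these comparisons. In anti-*Vegf* corneas 2 of the 5 were lower than in naïve corneas, *Col1a1*, a chain of type I collagen (log2 difference −1.21, adjusted p = 0.000225) and *Ptgds*, a prostaglandin D synthase (−1.18, adjusted p = 0.0283), where 5.94% of all genes fell. The part of keratocyte number in the *Pdgfra* values was not tested.

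*Pdgfrb*, the receptor of mural cells, was read by 3 probe sets and did not pass with any of them. The brightest read 7.30, 6.97, 6.90 and 7.16 on naïve arrays, 7.18, 7.20, 7.51 and 7.16 on IgG arrays, 7.30, 7.20, 6.28 and 6.83 on anti-*Vegf* arrays and 7.62, 7.50, 7.18 and 7.56 on dexamethasone arrays. Its largest difference was 0.56 between dexamethasone and anti-*Vegf* corneas (SE 0.18, adjusted p = 0.0721), where array F6 was the lowest and F27 overlapped the anti-*Vegf* range. The other probe sets gave 0.55 without overlap (adjusted p = 0.0598) and 0.25 (adjusted p = 0.367) for the same comparison. Averaged over the 3 probe sets the difference was 0.45 and passed (adjusted p = 0.032), as it did without anti-*Vegf* array F1x for the brightest (0.70, adjusted p = 0.0367). Against naïve corneas the brightest probe set differed by 0.18 in IgG, −0.18 in anti-*Vegf* and 0.38 in the dexamethasone group (adjusted p from 0.15 to 0.508).

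Among the contractile markers, *Tagln*, which encodes the actin-binding protein transgelin of smooth muscle, read 4.98, 4.73, 5.02 and 4.65 on naïve arrays and 5.38, 5.76, 6.97 and 5.40 on IgG arrays. On anti-*Vegf* arrays it read 5.79, 5.14, 5.72 and 5.61, and on dexamethasone arrays 6.08, 5.48, 6.15 and 5.52. All 12 sutured arrays lay above all 4 naïve arrays, and the sutured groups overlapped each other.

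*Tagln* was 2.05-fold higher in IgG corneas than in naïve corneas (log2 difference 1.03, SE 0.28, adjusted p = 0.0121) and 1.95-fold higher in dexamethasone treated corneas (0.96, adjusted p = 0.0202), and the anti-*Vegf* difference of 0.72 did not pass (adjusted p = 0.0701). No difference between treatments passed, and the largest was −0.31 between anti-*Vegf* and IgG (95% interval −0.91 to 0.28). The signal was low: it exceeded the 40th percentile of signal on 3 of 16 arrays, so that *Tagln*, like *Rgs5* with 0 of 16, would be removed by a filter that asks for 4, and 7 of the 9 members would be kept.

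The IgG difference of *Tagln* rested in part on array F22, without which it was 0.67 (adjusted p = 0.0194). The same array was the highest of the IgG group for all 9 genes of a vessel endothelium list and the highest of all 16 arrays for 6 of them. The list averaged 6.36 on F22 and between 5.53 and 5.79 on the other IgG arrays, beside 5.81 to 5.93 in naïve, 5.54 to 5.75 in anti-*Vegf* and 5.54 to 5.76 in dexamethasone treated corneas. *Emcn*, a surface glycoprotein of capillary and venous endothelium, read 6.15 on F22 and 4.42 to 4.96 on the other IgG arrays. It passed in no comparison (0.67 for IgG against naïve corneas, adjusted p = 0.0627). The genes of the list that passed fell against naïve corneas. They were *Vwf* in IgG (−0.71, adjusted p = 0.00108) and anti-*Vegf* (−0.75, adjusted p = 0.000626), and the brightest gene, *Kdr*, in anti-*Vegf* (−1.15, adjusted p = 0.0135). Over all genes 5.02% fell in IgG and 5.94% in anti-*Vegf*. The part of vessel RNA in the *Tagln* result was not tested. With either 5′ minus 3′ difference as a covariate the IgG call was lost (0.86, adjusted p = 0.0915, for beta-actin, and 0.84, adjusted p = 0.203, for *Gapdh*). IgG and naïve arrays occupy separate ranges of both measures, so that group and measure cannot be told apart there. For dexamethasone, whose arrays overlap the naïve ones in both, the *Tagln* difference stayed at 0.93 (adjusted p = 0.0216) and 1.03 (adjusted p = 0.0202). Over 18 alternatives the *Tagln* call was lost in 2 for IgG and in 4 for dexamethasone.

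*Acta2*, smooth muscle α-actin, read 8.97, 9.06, 9.21 and 9.57 on naïve arrays, 9.55, 9.33, 9.74 and 9.73 on IgG arrays, 9.55, 9.46, 9.77 and 9.46 on anti-*Vegf* arrays and 9.39, 9.29, 9.54 and 9.41 on dexamethasone arrays. Naïve array 4 overlapped every sutured group. The differences from naïve corneas were 0.39 in IgG (1.31-fold, adjusted p = 0.0334), 0.36 in anti-*Vegf* (1.28-fold, adjusted p = 0.0473) and 0.21 in the dexamethasone group (adjusted p = 0.287). The first and second had an adjusted p under 0.05 but did not reach the fold limit, and with the *Gapdh* covariate they were 0.07 (adjusted p = 0.826) and 0.09 (adjusted p = 0.70). Because IgG and naïve arrays have separate ranges of that covariate, it cannot be told apart from group in the IgG value. A further 5 probe sets match both *Acta2* and the cardiac actin gene *Actc1* and were assigned to no gene; none of them passed, and the brightest gave 0.39, 0.43 and 0.13 (adjusted p = 0.216, 0.175 and 0.746).

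*Des*, which encodes the muscle intermediate filament desmin found in pericytes, ranged from 6.65 to 6.84 on naïve, from 6.73 to 7.18 on IgG, from 6.67 to 7.24 on anti-*Vegf* and from 6.52 to 6.87 on dexamethasone arrays. *Cspg4*, the NG2 proteoglycan of pericytes, ranged from 5.74 to 6.48, from 6.05 to 6.75, from 5.97 to 6.90 and from 5.77 to 6.72 in the same order. *Rgs5*, a regulator of G protein signalling and a pericyte marker, was near the bottom of the scale at 4.43 to 4.80, 4.49 to 5.49, 4.40 to 4.98 and 4.16 to 4.76. None of these 3 genes passed in any of the 6 comparisons, and their groups overlapped in each.

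The largest differences of these markers from naïve corneas were 0.22 for *Des* (95% interval −0.04 to 0.48) and 0.24 for *Rgs5* (−0.19 to 0.67), both in IgG corneas, and 0.26 for *Cspg4* in anti-*Vegf* corneas (−0.25 to 0.76). The highest *Rgs5* value, 5.49, was again that of IgG array F22. With dexamethasone *Rgs5* was lower than in IgG by a mean of 0.38 (95% interval −0.81 to 0.06, adjusted p = 0.272).

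**Figure D3:**
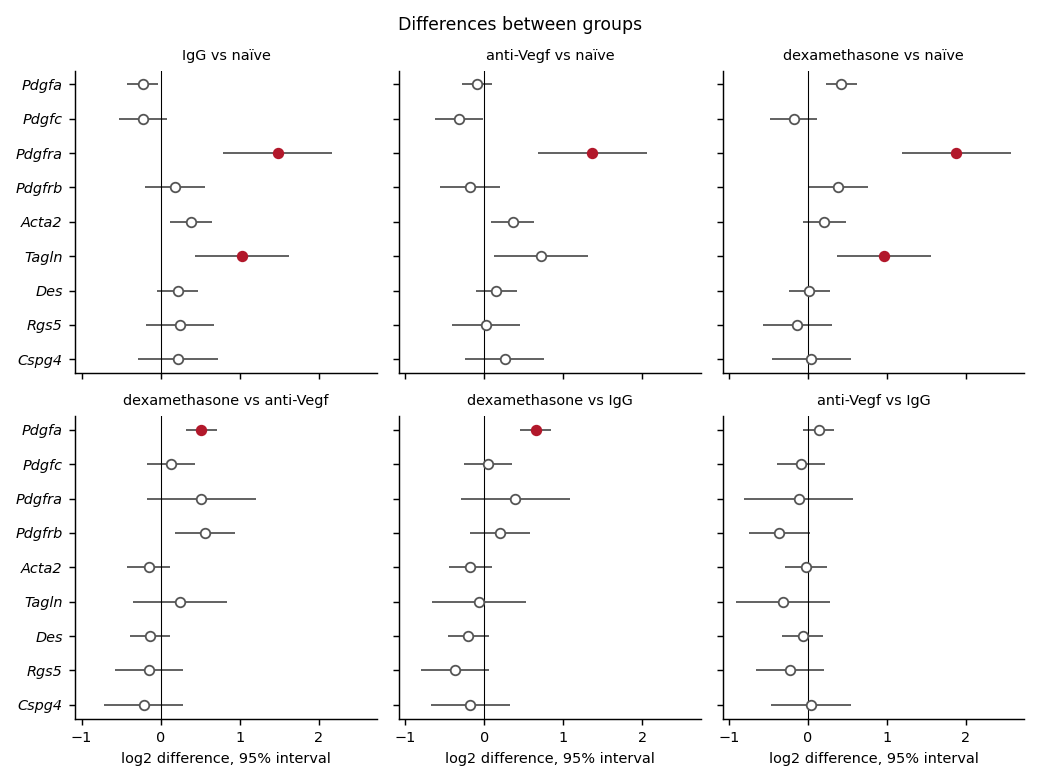
Log2 difference between groups (horizontal axes, first-named group minus second) for each of the 9 measured genes in the 6 comparisons, with 95% intervals from limma. Filled red points passed the limits of their comparison: *Pdgfra* in all 3 comparisons with naïve corneas, *Tagln* in IgG (1.03) and dexamethasone (0.96), and *Pdgfa* in both comparisons of dexamethasone with an antibody group.

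A list of 25 further genes of the PDGF pathway, all of them measured, holds the ligand *Pdgfd*, the processing proteases, co-receptors, adaptors, kinases and phosphatases of the receptors. Against naïve corneas 0 rose and 3 fell in IgG, 0 rose and 2 fell in anti-*Vegf*, and 1 rose and 3 fell in dexamethasone treated corneas, with medians of −0.13, −0.13 and −0.05 (−0.007, −0.007 and 0.004 over all genes). Over all genes 6.32%, 6.82% and 8.19% rose and 5.02%, 5.94% and 4.45% fell in the same order. Between dexamethasone and anti-*Vegf* 3 were higher and 3 lower (4.63% and 2.5% of all genes), and between dexamethasone and IgG 1 was higher and 3 lower (7.41% and 3.16% of all genes). Between anti-*Vegf* and IgG limma passed 0 of 25, beside 0% of all genes. At an unadjusted p under 0.05 there were 4, with no share of all genes to set beside them. Of the 25 genes, 15 passed in no comparison, a count with no share of all genes beside it.

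Among the receptor-like genes of that list, *Pdgfrl*, a secreted protein that resembles the PDGF receptors, fell in all 3 sutured groups, with log2 differences from naïve of −0.97 for IgG (adjusted p = 0.00525), −1.44 for anti-*Vegf* (adjusted p = 0.000264) and −0.83 for dexamethasone (adjusted p = 0.0156). Its naïve arrays lay between 9.96 and 10.39 and all sutured arrays between 8.04 and 9.57, opposite in direction to *Pdgfra*. *Ptprj*, a receptor phosphatase that acts on PDGF receptors, also fell in all 3, by 0.76, 0.99 and 0.63 (adjusted p at most 0.000673). *Lrp1*, a co-receptor of PDGFRβ, rose by 0.64 in dexamethasone treated against naïve corneas (adjusted p = 0.0131) and was 0.63 higher than in anti-*Vegf* corneas (adjusted p = 0.0388). *Sparc*, a matrix protein that binds PDGF-B and was the brightest gene of the list, was 0.40 higher in dexamethasone treated than in anti-*Vegf* corneas (adjusted p = 0.0115).

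Among the signal transducers, *Pik3r3*, a regulatory subunit of phosphatidylinositol 3-kinase, set dexamethasone apart. It ranged from 7.22 to 7.49 on dexamethasone arrays, from 7.79 to 8.15 on naïve, from 8.21 to 8.37 on anti-*Vegf* and from 8.27 to 8.71 on IgG arrays, with no overlap between dexamethasone and any other group. The dexamethasone differences were −1.17 against IgG (adjusted p = 4.68e-05), −0.88 against anti-*Vegf* (adjusted p = 0.000288) and −0.60 against naïve corneas (adjusted p = 0.000413). With the *Gapdh* covariate they were −0.99 (adjusted p = 0.0195), −0.72 (adjusted p = 0.0356) and −0.56 (adjusted p = 0.00112), the last under the fold limit. The kinase *Src* fell by 0.65 in IgG against naïve corneas (adjusted p = 2.9e-05) and was 0.34 higher in dexamethasone treated than in IgG corneas (adjusted p = 0.0144). The adaptor *Nck2* was lower with dexamethasone by 0.42 against anti-*Vegf* (adjusted p = 0.0136) and by 0.36 against IgG (adjusted p = 0.023), the adaptor *Nck1* by 0.29 against anti-*Vegf* and the phosphatase *Ptpn1* by 0.34 against IgG, and *Plcg1*, a phospholipase that docks on PDGF receptors, was 0.34 higher against anti-*Vegf* (adjusted p = 0.0483, 0.0285 and 0.0323 in that order). These differences between dexamethasone and antibody groups, like those of *Src*, *Lrp1* and *Sparc*, come from arrays with separate ranges of the *Gapdh* difference. Treatment and this measure cannot be told apart in them.

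A list of 29 further mural and contractile genes had 28 measured. Against naïve corneas 4 rose and 2 fell in IgG, 3 rose and 2 fell in anti-*Vegf*, and 3 rose and 1 fell in dexamethasone treated corneas, with medians of 0.10, 0.09 and 0.08, beside the same shares and medians of all genes as for the pathway list. Between dexamethasone and anti-*Vegf* 0 were higher and 1 lower (4.63% and 2.5% of all genes). Between dexamethasone and IgG 0 were higher and 2 lower (7.41% and 3.16% of all genes). Between anti-*Vegf* and IgG limma passed 0 of 28, beside 0% of all genes. At an unadjusted p under 0.05 there were 2, again with no share of all genes to set beside them. In all, 22 of the 28 genes passed in no comparison, among them the smooth muscle genes *Myh11*, *Cnn1*, *Lmod1* and *Myocd* and the pericyte genes *Kcnj8*, *Abcc9* and *Notch3*. No share of all genes stands beside that count, so it is not read as a trait of the list. Of the genes named, *Lmod1* lay between 3.74 and 4.17, *Cnn1* between 4.18 and 4.76, *Abcc9* between 4.24 and 4.78 and *Kcnj8* between 4.35 and 5.04. These levels are as low as those of *Rgs5*, so that their not passing says little. *Myh11* (5.24 to 6.14), *Myocd* (5.66 to 7.22) and *Notch3* (6.86 to 7.58) were higher.

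The risers of that list are not restricted to mural cells. *Tpm2*, β-tropomyosin, ranged from 7.89 to 8.09 on naïve arrays and from 10.31 to 11.08 on sutured arrays, a difference of 2.89 for IgG, 2.90 for anti-*Vegf* and 2.45 for dexamethasone (adjusted p at most 1.72e-09). With dexamethasone it was lower by 0.44 than in IgG (adjusted p = 0.0151) and by 0.45 than in anti-*Vegf* (adjusted p = 0.0186), calls that were lost with the *Gapdh* covariate (−0.53, adjusted p = 0.149, and −0.52, adjusted p = 0.101). *Tpm1*, α-tropomyosin and the brightest of the list, rose by 1.15, 1.26 and 1.23, and *Anpep*, a surface peptidase of pericytes that myeloid cells also carry, rose by 1.27, 1.13 and 1.55 (adjusted p at most 9.11e-05 for both genes). Of the 6 leukocyte genes, *S100a9*, *Ptprc*, *Csf3r* and *Lyz2* rose in all 3 sutured groups, *Itgam* and *Cd68* did not pass against naïve corneas, and *Cd68* was lower with dexamethasone than with IgG (−0.86, adjusted p = 0.00154) and anti-*Vegf* (−0.81, adjusted p = 0.00382). Their part in the *Anpep* result was not tested.

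Conversely, *Synpo2*, an actin-binding protein of smooth muscle, fell by 1.07 in IgG, 1.09 in anti-*Vegf* and 0.72 in the dexamethasone group (adjusted p at most 0.00859), and *Mylk*, smooth muscle myosin light chain kinase, fell by 0.78 in IgG and 0.75 in anti-*Vegf* (adjusted p = 0.00648 and 0.00812). *Foxc1*, a transcription factor of periocular mesenchyme and brain pericytes, was 0.86 higher in IgG than in naïve corneas (adjusted p = 0.0301) and 1.08 lower in dexamethasone treated than in IgG corneas (adjusted p = 0.0222). With the *Gapdh* covariate these *Foxc1* differences were 0.10 and −0.05. In both comparisons the arrays have separate ranges of that covariate, so that group and covariate cannot be told apart. A list of 12 skeletal muscle genes, from tissue next to the eye, averaged between 5.09 and 5.45 on every array, but its myosin gene *Myh2* fell in all 3 sutured groups (−1.13, −1.13 and −0.89, adjusted p = 0.00757, 0.00738 and 0.033) and *Myh1* was 0.57 higher in dexamethasone treated than in IgG corneas (adjusted p = 0.0404). *Myh2* alone of the 12 passed against naïve corneas, and *Myh1* alone between treatments. *Myh1*, read from the brightest of its 5 probe sets, lay between 9.92 and 11.28 on all arrays. The muscle genes *Acta1* and *Myh4* lay between 3.49 and 3.81 and between 2.95 and 3.35. Whether the *Myh1* signal comes from muscle was not tested. The part of skeletal muscle in the contractile gene results was not tested.

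**Figure D4:**
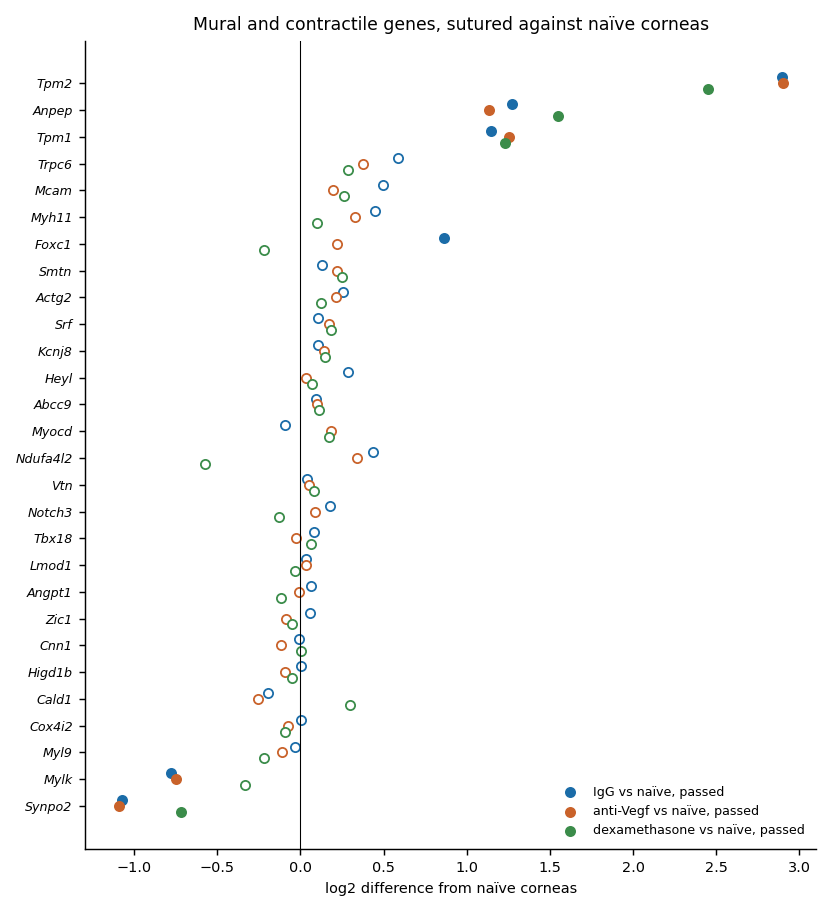
Log2 difference of each sutured group from naïve corneas (horizontal axis) for the 28 measured mural and contractile genes (vertical axis), with filled points for genes that passed and open points for those that did not. *Tpm2*, *Tpm1* and *Anpep* lie to the right in all 3 groups and *Synpo2* to the left, and most others lie near 0.

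The genes whose signals followed a member most closely were found by Pearson correlation over the 16 arrays, as a description in which group differences, RNA length and tissue makeup are shared by the points. For *Pdgfra* they were *Clmp* (r = 0.973), *Il1r1* (0.966) and *Hip1* (0.951), and with group means subtracted *Zeb1* (0.93), *Il1r1* (0.91) and *Clmp* (0.907). For *Pdgfa* they were *Mdc1* (0.955), *Nup98* (0.927) and *Taf5* (0.926), none of which was among the 3 closest with group means subtracted (*Usp38*, *St3gal6* and *Slc38a2*, 0.949 to 0.903). For *Tagln* they were *Ccn5* (0.878), *Rpl28* (0.871) and *Cd93* (0.856), for *Rgs5* they were *Sele* (0.854), *Taf7l* (0.851) and *Plvap* (0.846), and for *Pdgfrb* they were *Aoc3* (0.901), *Tmtc1* (0.876) and *Twist1* (0.855). *Cd93*, *Sele* and *Plvap* are endothelial genes. With group means subtracted the 3 closest genes were *Sele*, *Ecscr* and *Ube3al1* for *Tagln* (0.84 to 0.811), *Rexo2*, *Lrrc32* and *Katnal1* for *Rgs5* (0.908 to 0.859) and *Cwc25*, *Tmtc1* and *Exoc3l2* for *Pdgfrb* (0.915 to 0.91). Of the genes named for *Tagln*, *Rgs5* and *Pdgfrb*, only *Tmtc1* recurred for the same member, while the endothelial gene *Sele* moved from the *Rgs5* list to that of *Tagln*. For *Pdgfra*, *Il1r1* and *Clmp* recurred. Among the remaining members *Rhob* recurred for *Pdgfc*, *Cetn4* for *Acta2*, *Pacs1* for *Cspg4* and *Pacsin1* for *Des*. IgG array F22 had the highest *Tagln* and *Rgs5* signals of all arrays, and its part in these correlations was not tested. Among the members themselves, *Pdgfa* and *Pdgfra* had r = 0.40 over the 16 arrays and 0.76 with group means subtracted.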

How the data were processed

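RNA of 16 corneas was measured on Affymetrix arrays. Per the labels the authors ran RMA in Affymetrix Expression Console, which corrects background, normalizes and summarises, and they deposited log2 values for each probe set. They were used as deposited, and 57 control probe sets were set aside for quality checks. Probe sets were named from the platform annotation: of 31042, 20826 carried 1 gene symbol, 436 several and 9780 none, and those with several were assigned to no gene. A gene was read from its probe set with the highest mean signal.

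Differences were fitted with limma 3.58.1 in R 4.3.3 over all 31042 probe sets and 16 arrays (12 residual degrees of freedom, Benjamini-Hochberg adjustment), a procedure also tested on simulated data. No probe set was filtered, and the fold limit of 1.5 applies against naïve corneas only. Control probe sets were compared by exact permutation tests. Array number, 4 per group, limits the precision. The genes and lists were chosen with earlier results of these data known. All members were named. From the PDGF pathway, mural, vessel, leukocyte and skeletal muscle lists came the brightest gene and up to 4 called genes per comparison. The called genes were those with the largest change. The keratocyte list gave its called genes only. Lists for corneal epithelium, glia, pigment cells and conjunctiva were also measured, and none of their genes is named. Other genes were chosen after their values were seen: *Nck1*, *Plcg1*, *Mylk*, *Emcn*, *Pdgfd*, *Itgam*, *Acta1*, *Myh4* and the genes named as not passing. So was the comparison of *Pdgfrl* with *Pdgfra*. For each member the 3 genes with the highest correlation were found.

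Alternatives were a fit of only the compared groups, array weights, robust moderation with a mean-variance trend, cyclic loess, a filter at the 40th percentile on 4 or more arrays, averaging of probe sets within a gene, other *Pdgfrb* probe sets, another fold limit, leaving out each array, and the 5′ minus 3′ differences as covariates, which were chosen after seeing the data. Tables and plots used Python 3.11.15, pandas 2.3.3, scipy 1.17.1 and matplotlib 3.10.9.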

Additional observations from a re-analysis of the deposited data

Results flagged for a closer look

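Of 44 sets of 4 arrays (the 11 probe sets in each of 4 groups), 4 had a value far from the other 3 by Dixon's test, which flags about 1 group in 20 by chance. These were *Pdgfa* on IgG array F17 (8.59, beside 8.48 to 8.49), *Pdgfrb* on IgG array F22 (7.51, beside 7.16 to 7.20), *Cspg4* on IgG array F17 (6.75, beside 6.05 to 6.15) and *Des* on dexamethasone array F25 (6.52, beside 6.85 to 6.87). None of these arrays decided a call of its gene. The responses of *Pdgfa* to suture under dexamethasone and under the antibodies differed by a direct test, by 0.51 against anti-*Vegf* and by 0.65 against IgG (limma, adjusted p = 0.00435 and 0.000581), and neither call was kept with the *Gapdh* 5′ minus 3′ covariate.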

How the results depend on the processing

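*Pdgfra* kept its direction and its call in all 19 alternatives in each comparison with naïve corneas (1.25 to 2.35 in IgG, 1.14 to 2.09 in anti-*Vegf* and 1.57 to 2.19 in dexamethasone treated corneas), and no result reversed. Leaving out each array in turn passed 1 to 2 members in anti-*Vegf* against naïve, dexamethasone against naïve and dexamethasone against anti-*Vegf*, 2 to 2 in IgG against naïve, 1 to 1 in dexamethasone against IgG and 0 to 0 in anti-*Vegf* against IgG. In anti-*Vegf* against naïve corneas 2 members passed with only the compared arrays (*Tagln*, adjusted p = 0.00739) and 2 without a fold limit (*Acta2*), and *Tagln* also passed without array F2 (adjusted p = 0.0457). In dexamethasone against naïve corneas 1 passed with array weights (*Tagln*, adjusted p = 0.0588) and 1 with the filter on low signals, which removes *Tagln*, and *Tagln* was lost without F25 (0.0542), F27 (0.0623) or naïve array 4 (0.0509). In IgG against naïve corneas 1 passed with the filter, 1 with the beta-actin covariate and 1 with the *Gapdh* covariate. In dexamethasone against anti-*Vegf* 2 passed with the mean of probe sets (*Pdgfrb*), and 0 passed with a fold limit of 1.5 and 0 with the *Gapdh* covariate, and in dexamethasone against IgG 0 passed with the *Gapdh* covariate. Over all genes, that covariate reduced the calls from 1503 to 270 for dexamethasone against IgG and from 1013 to 397 against anti-*Vegf*. Where no construction shows it, the cause was not tested. No paired analysis was possible because the groups share no replicate numbers. Signal limits the members *Rgs5* and *Tagln* and the list genes *Lmod1*, *Cnn1*, *Abcc9* and *Kcnj8*, which lie low on the scale.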
